A study of Homo sapiens with 6 samples.

Results

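The genes of homologous recombination, the Fanconi pathway and the checkpoint kinases were followed in RPE1 cells, a human retinal pigment epithelial line immortalized with hTERT, with and without depletion of the centriolar satellite protein OFD1. The set held 40 genes chosen by symbol, and all 40 were among the 60666 genes that the table lists outside alternative and patch contigs. All 6 samples came from the hTERT-RPE1-TOShOFD1 line, which carries a lentiviral short hairpin RNA (shRNA) to OFD1 under Tet-On control. The 3 control samples, labelled WT, had no doxycycline, and the 3 OFD1-depleted samples, labelled as knockdown, received 200 ng/mL doxycycline for 72 h. The deposited column names of both groups begin with WT. The line was kept after drug selection of infected cells and was not described as a single clone. No sample had doxycycline without the hairpin, so an effect of the drug and an effect of OFD1 loss cannot be told apart. The labels do not say whether replicates were separate cultures, and the p-values measure only the spread between these samples.

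Homologous recombination repairs a broken chromosome by copying its sister. The ends are resected by MRE11, RAD50, NBN, RBBP8 and EXO1, BRCA1 and its partners hand the single-stranded ends to BRCA2 and PALB2, and strand exchange factors, helped by the paralogues RAD51B, RAD51C, RAD51D, XRCC2 and XRCC3, find and invade the sister. The Fanconi pathway opens DNA crosslinks: a core complex with the E2 enzyme UBE2T places ubiquitin on FANCD2 and FANCI. ATM and ATR sense breaks and stalled forks, and pass the signal to CHEK2 and CHEK1. Recombination is used mainly in S and G2 phase, and many of its genes are known targets of E2F transcription factors, which pocket proteins of the RB family hold off in resting cells.

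Values were FPKM, fragments divided by transcript length and by the mapped fragments of the library, so that levels of different genes are on a scale per length. Changes are log2 fold changes on log2(FPKM + 0.1), OFD1-depleted over control, which understates the change of low genes. A gene passed the test where limma gave a two-sided p under 0.05 after Benjamini-Hochberg adjustment over the 12025 genes that averaged 1 FPKM or more across the 6 samples. Groups are called apart where all control values lay on one side of all OFD1-depleted values. For such a gene the two-sided exact permutation test over samples gives p = 0.1, the smallest that 3 against 3 samples allow.

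OFD1 itself, the target of the hairpin, was measured at 3.34, 3.62 and 3.44 FPKM in control and, with doxycycline, at 0.795, 0.763 and 1.43 FPKM, 28.7% of control (log2 fold change -1.75, limma adjusted p = 0.00085). The labels give the tissue as retina and the extraction text speaks of retinas, whereas the growth text describes cultured cells. Of 11 pigment epithelium markers, 3 (MITF, KRT8 and KRT18) averaged at least 1 FPKM over the 6 samples, and the defining markers RPE65, RLBP1, TTR and TYR were at or near 0. The summed level of the 11 was 260.8 to 278.0 FPKM in control and 302.0 to 418.8 FPKM in OFD1-depleted samples, mostly from KRT8 and KRT18. Only MITF, KRT8 and KRT18 were tested, and none of them passed. The groups were apart, with OFD1-depleted higher, in 4 of the 11, against 13.8% of all genes tested. BEST1 was near 0 in all libraries but OFD1-depleted replicate 2, at 4.33 FPKM. Of 15 markers of retinal neurons and glia, 7 were at 0 throughout, and their summed level was 43.4 to 46.6 FPKM in control and 43.95 to 48.1 FPKM in OFD1-depleted samples. GLUL, a glial enzyme of this list, passed as lower (log2 fold change -0.83, limma adjusted p = 0.00804). The highest gene of the list, RBPMS, averaged 29.3 FPKM over the 6 samples. RBPMS and PRKCA, the only others tested, had log2 fold changes of 0.28 and 0.10 and did not pass. Of 6 markers of blood and endothelium only CD68 averaged over 1 FPKM, and the sums were 35.9 to 41.0 FPKM in control and 31.7 to 40.3 FPKM in OFD1-depleted samples. Mitochondrially encoded genes took 8.66% to 13.8% of the summed FPKM in control and 15.6% to 19.3% in OFD1-depleted samples, and the sums were 408302 to 414547 and 433262 to 493510 FPKM, with both measures apart between the groups. Their part in the members' change was not tested beyond the scalings named in the closing section, under which 23 to 27 members fell. Under the same scalings 10.9% to 16.5% of all genes tested passed as lower. OFD1-depleted replicate 2 stood apart from the other libraries, with an array weight of 0.203 against 0.643 to 3.68. Its deviation from the mean of the other OFD1-depleted libraries had a Spearman correlation of -0.488 with exon length over 12000 genes. The values were 0.405 and 0.342 for the other OFD1-depleted replicates. Each library enters the deviations of the others, so these values partly mirror that of replicate 2. OFD1-depleted replicate 2 was the lowest of its group in 27 of the 40 members, so the results are also given without it.

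Promoter sequences are shown for the 3 members with the smallest adjusted p and the 3 with the largest, among tested members with a promoter sequence. An E2F core, letters known to bind E2F, is marked where it stands in them. They are extremes of the same data, so their contrast is not a test. FANCF, with the next largest adjusted p (0.697, limma), holds a core in the longer window described below. Each runs from 120 bases before the RefSeq start to 20 bases after it, 5′ to 3′ on the strand of the gene, on GRCh38.p14. Capitals mark an E2F core, which was searched as GCGGGAA and its variants with the letters GCGCGAA, with the letters GCGCCAA and with the letters GCGGCAA, on either strand. BRCA1 lies on the minus strand (chr17:43125345-43125484), with its core at bases -47 to -41 from the start. RAD51AP1 lies on the plus strand (chr12:4538770-4538909), with its core at -21 to -15, and FANCG on the minus strand (chr9:35079923-35080062), with its core at -84 to -78.
BRCA1: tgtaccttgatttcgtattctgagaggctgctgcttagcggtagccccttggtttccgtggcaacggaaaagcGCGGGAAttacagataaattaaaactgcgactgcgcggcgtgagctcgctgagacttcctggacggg
RAD51AP1: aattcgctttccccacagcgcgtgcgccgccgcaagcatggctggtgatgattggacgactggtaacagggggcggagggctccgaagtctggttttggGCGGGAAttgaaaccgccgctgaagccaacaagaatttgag
FANCG: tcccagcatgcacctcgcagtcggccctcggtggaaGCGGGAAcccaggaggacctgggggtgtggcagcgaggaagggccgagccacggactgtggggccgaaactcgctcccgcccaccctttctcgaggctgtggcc
RAD50 on the plus strand (chr5:132556857-132556996), ATR on the minus strand (chr3:142578714-142578853) and MUS81 on the plus strand (chr11:65860313-65860452) hold no such core here, which says only that these letters are absent from the stretch.
RAD50: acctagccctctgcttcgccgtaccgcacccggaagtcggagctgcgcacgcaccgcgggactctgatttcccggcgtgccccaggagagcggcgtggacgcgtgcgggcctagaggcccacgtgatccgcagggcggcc
ATR: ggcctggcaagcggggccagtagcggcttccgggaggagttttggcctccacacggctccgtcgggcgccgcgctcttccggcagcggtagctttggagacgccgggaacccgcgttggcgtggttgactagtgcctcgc
MUS81: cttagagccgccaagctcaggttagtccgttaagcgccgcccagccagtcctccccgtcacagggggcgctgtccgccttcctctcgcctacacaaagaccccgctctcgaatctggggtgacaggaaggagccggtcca

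Over the longer window of 250 bases before to 50 after the start, 36 members had a RefSeq promoter sequence, and 21 of them (58.3%) held an E2F core. The share was 12.97% of all 35116 windows and 22.1% of the 9029 windows of tested genes. Of the 21 members with a window that passed the test as lower, 17 held a core, and BRCA2, UBE2T, ATM and CHEK1 did not. Of the 14 that were tested and did not pass, 4 held one, namely RAD51D, FANCC, FANCL and FANCF. The median log2 fold change was -1.18 in members with a core and -0.44 in members without. Over all tested genes, 17.4% of those with a core and 11.4% of those without passed as lower. The cell cycle homology letters TTTGAA, with the variant TTCGAA, stood in 5 member windows (13.9%), against 16.4% of all windows and 10.4% of those of tested genes, and CCAAT in 16 (44.4%), against 34.6% and 37.2%. A match is a description of the letters and not a measured binding site, and the windows of CHEK1 and RAD51B lie 1061 and 3762 bases from the canonical GENCODE start.

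In OFD1-depleted cells 24 of the 39 tested members fell (61.5%), none rose and 15 did not pass, with BRCA1 (13.9% of control) the most reduced. Over all 12025 genes tested, 11.9% passed as lower and 5.07% as higher. All 40 members were measured above 0, and only FANCB stayed under the 1 FPKM filter. A further 6 members, BRCA1, BRCA2, XRCC2, FANCM, BLM and POLQ, averaged under 1 FPKM in OFD1-depleted cells and passed the filter through their control level. The groups were apart, with OFD1-depleted lower, in 32 of the 40 members and overlapped in 8, against 22.3% of all genes apart in this direction. No member was apart in the opposite direction, against 13.8% of all genes. The fall was at least 1 on the log2 scale in 19 members, against 4.39% of all genes. The median log2 fold change was -0.96 over the tested members and -0.03 over all genes tested. In a bulk sample, fewer cells using a gene and less of its RNA per cell cannot be told apart.

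The falls were spread over the 3 libraries. Against the control mean, the median log2 fold change of the members was -0.88, -1.05 and -0.92 in OFD1-depleted replicates 1, 2 and 3. Without replicate 2, all 24 members still passed, 33 were apart as lower and 3, RAD51C, RAD50 and ATR, as higher, against 28.4% and 24.3% of all genes. Across members, the log2 fold change had a Spearman correlation of 0.13 with the control FPKM and 0.23 with exon length, as a description over 39 genes of the same libraries. The value for exon length was 0.34 without OFD1-depleted replicate 2 and -0.15 over 12000 genes. Of the 24 members that fell, 16 passed in every alternative in which they could be fitted. BARD1, BRIP1, BRCA2, XRCC2, BLM and EME1 missed the threshold only where genes of any level were tested together, with adjusted p between 0.0538 and 0.0663 (limma). XRCC3 and ATM were less stable and are qualified where they are described. Of the members that did not pass, FANCC passed as lower in 4 alternatives, FANCL, MRE11 and CHEK2 in 2 each and RAD51B in 1, with adjusted p down to 0.0171 for FANCC.

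**Figure D1:**
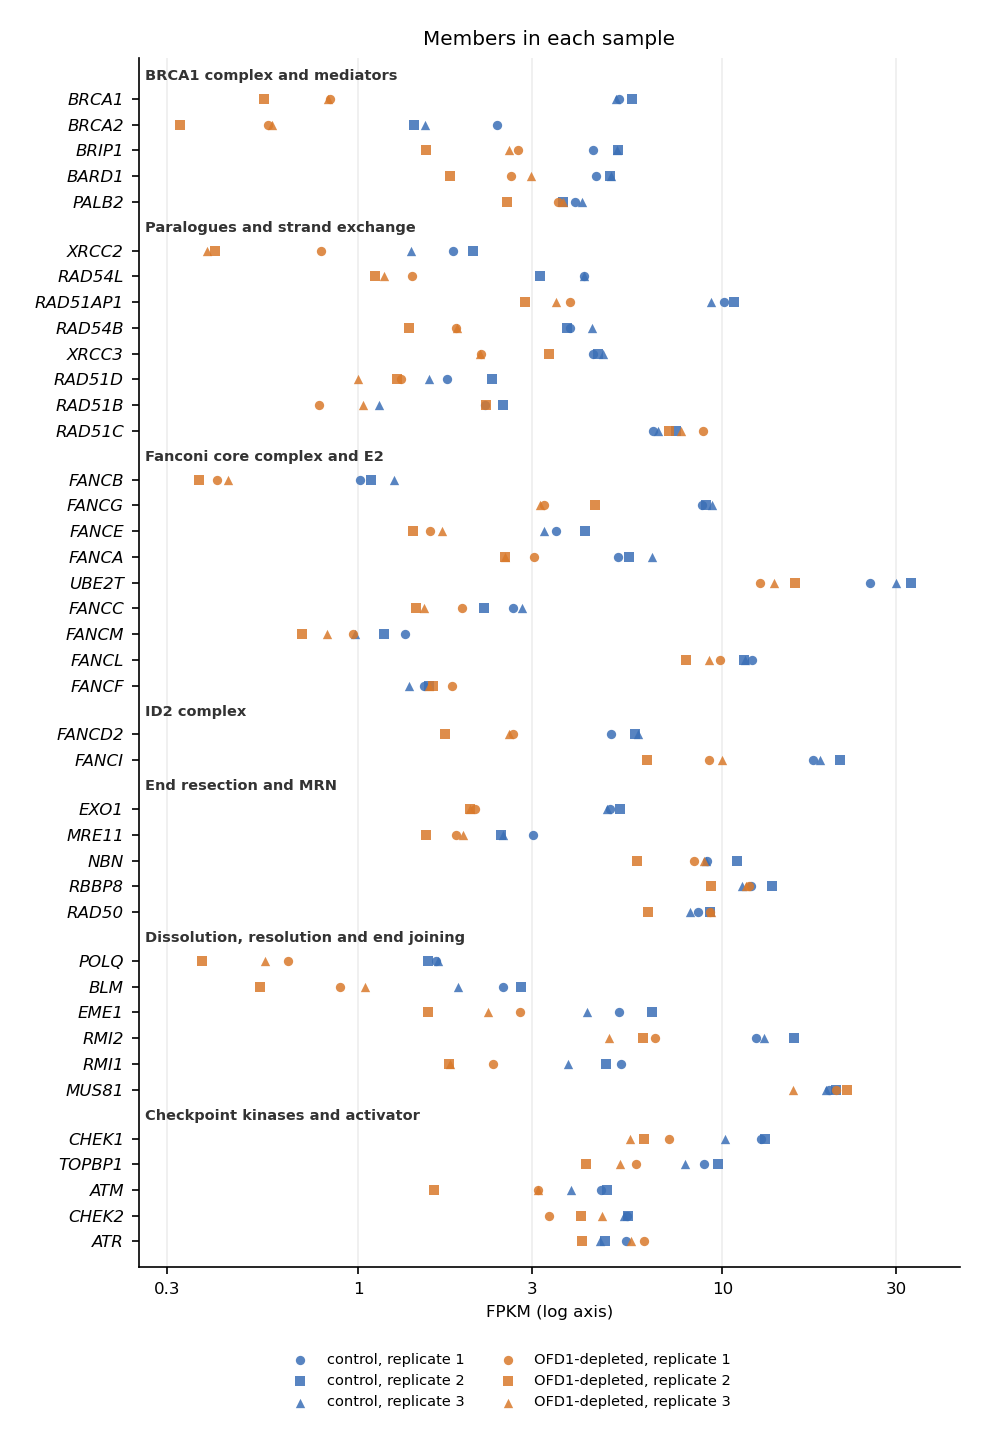
FPKM (log axis) of the 40 members in each of the 6 samples, by role, with control in blue, OFD1-depleted in orange and replicate numbers as shapes (circle 1, square 2, triangle 3). In 32 members every orange point lies left of every blue point, and in the other 8, among them PALB2, RAD51C, FANCF, RAD50, MUS81 and ATR, the groups overlap.

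Of the BRCA1 complex and the mediators, 4 of 5 tested members fell, and PALB2 was the exception. The counts by role, here and below, stand beside 11.9% of all genes that passed as lower. BRCA1, the E3 ligase that steers breaks to recombination (ENSG00000012048, chromosome 17 from 43044295 to 43170245), had 5.19, 5.65 and 5.12 FPKM in control and 0.840, 0.553 and 0.825 FPKM in OFD1-depleted replicates. All control values were more than 5 FPKM and no OFD1-depleted value reached 1 FPKM, so the groups were far apart. The means were 5.32 ± 0.287 and 0.740 ± 0.162 FPKM (SD, n = 3), and the log2 fold change was -2.71 (SE 0.218, limma adjusted p = 2.31e-05). It ranked 12 from the lowest of the 12025 log2 fold changes. Its partial copy BRCA1P1 averaged 0.363 FPKM without doxycycline and 0.0354 FPKM with it, and how shared reads were divided was not tested.

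BARD1, which forms the ligase with BRCA1, had 4.50, 4.93 and 4.96 FPKM in control and 2.63, 1.79 and 2.99 FPKM in OFD1-depleted cells. It was slightly below BRCA1 in every control library and above it in every OFD1-depleted library, with a change of -0.96 in log2 units (SE 0.202, limma adjusted p = 0.00765). BRIP1, the helicase that binds BRCA1, had 4.42, 5.17 and 5.15 FPKM and then 2.74, 1.53 and 2.60 FPKM, and gave -1.11 (log2 fold change, limma adjusted p = 0.00612). BRCA2, the mediator of strand exchange, had 2.41, 1.42 and 1.53 FPKM and then 0.566, 0.324 and 0.581 FPKM, or 27.4% of control (log2 fold change -1.67, limma adjusted p = 0.00644). Each of the 3 genes had its lowest value in OFD1-depleted replicate 2 and its groups apart. PALB2, the bridge between BRCA1 and BRCA2, had 3.95, 3.65 and 4.11 FPKM in control and 3.54, 2.57 and 3.66 FPKM in OFD1-depleted cells. Its groups overlapped, and its log2 fold change was -0.27 with a 95% confidence interval of -0.67 to 0.13 (limma adjusted p = 0.352).

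Among the paralogues RAD51B, RAD51C, RAD51D, XRCC2 and XRCC3 and the strand exchange factors, 5 of 8 fell. RAD51AP1, which stimulates strand invasion, had 10.1, 10.8 and 9.31 FPKM in control and 3.83, 2.88 and 3.49 FPKM in OFD1-depleted cells (log2 fold change -1.54, SE 0.155, limma adjusted p = 8.16e-05). RAD54L, a motor of strand exchange, had 4.18, 3.15 and 4.18 FPKM and then 1.40, 1.11 and 1.18 FPKM (log2 fold change -1.56, limma adjusted p = 0.000469). RAD54B, its relative, had 3.83, 3.74 and 4.38 FPKM and then 1.86, 1.38 and 1.87 FPKM (log2 fold change -1.19, limma adjusted p = 0.00172). All 3 genes had groups well apart, at 32.1% to 42.7% of control. RAD54B shares 66.0% of its exon bases with FSBP on the same strand, listed at 0.696 FPKM in control, and RAD54L shares 19.9% with LRRC41 on the opposite strand.

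The paralogues, which help strand exchange, did not move as a block. XRCC2 had 1.83, 2.07 and 1.40 FPKM in control and 0.792, 0.405 and 0.385 FPKM in OFD1-depleted cells (log2 fold change -1.62, SE 0.338, limma adjusted p = 0.00756). RAD51C, at 6.44, 7.44 and 6.68 FPKM and then 8.87, 7.14 and 7.68 FPKM, gave a log2 fold change of 0.20 with an interval of -0.12 to 0.51. The first was below every control value in all OFD1-depleted replicates, whereas the groups of the second overlapped. RAD51D had groups apart, at 1.75, 2.33 and 1.57 FPKM and then 1.31, 1.28 and 0.997 FPKM, but did not pass (log2 fold change -0.60, limma adjusted p = 0.126). RAD51B varied widely, from 1.15 to 2.50 FPKM in control and from 0.782 to 2.25 FPKM in OFD1-depleted cells, and its interval ran from -1.42 to 0.29. XRCC3 had a log2 fold change of -0.84 that passed (limma adjusted p = 0.0137), and missed the threshold in 4 of 17 alternatives, with adjusted p up to 0.0784. As 76.7% of its exon bases lie opposite KLC1, listed at 73.7 FPKM in control against 4.56 FPKM for XRCC3, and the counting of strands was not given in the sources used here, its value is uncertain.

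In the Fanconi core complex and its E2 enzyme, 4 of the 8 tested members fell, and the 4 others had smaller differences. UBE2T, the E2 enzyme and the most abundant member in control, had 25.4, 32.9 and 30.0003 FPKM in control and 12.7, 15.8 and 13.9 FPKM in OFD1-depleted cells (log2 fold change -1.05, SE 0.144, limma adjusted p = 0.000542). FANCG, a scaffold of the core, had 8.79, 9.03 and 9.36 FPKM and then 3.24, 4.49 and 3.16 FPKM (log2 fold change -1.31, limma adjusted p = 0.000329). In UBE2T and FANCG the highest OFD1-depleted value came from replicate 2, which was the lowest in most members. FANCA, which binds FANCG, had 5.18, 5.56 and 6.40 FPKM and then 3.04, 2.53 and 2.53 FPKM (log2 fold change -1.05, limma adjusted p = 0.00134). FANCE, which links the core to FANCD2, had 3.49, 4.20 and 3.25 FPKM and then 1.57, 1.41 and 1.70 FPKM (log2 fold change -1.17, limma adjusted p = 0.00191). These 4 genes stood at 40.04% to 48.0% of control, with their groups apart.

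FANCL, the E3 ligase of the core, had 12.04, 11.5 and 11.5 FPKM in control and 9.87, 7.93 and 9.18 FPKM in OFD1-depleted cells. The groups were apart, yet the log2 fold change of -0.38 did not pass (limma adjusted p = 0.0773). FANCC, another core subunit, gave -0.63 (limma adjusted p = 0.0657), and FANCM, the translocase that anchors the core on DNA, gave -0.45 (limma adjusted p = 0.335), both with groups apart. FANCF, the adaptor of the core, was at 1.52, 1.57 and 1.38 FPKM and then 1.81, 1.603 and 1.57 FPKM, with an interval of -0.33 to 0.63 on the log2 scale. FANCB, the X-linked subunit, had 1.01, 1.08 and 1.25 FPKM in control and 0.410, 0.366 and 0.440 FPKM in OFD1-depleted cells. It was not in the main test, its groups were apart at 36.3% of control (exact permutation p = 0.1), and with no filter its log2 fold change was -1.26 (limma adjusted p = 0.0568).

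Both substrates of the core fell, to 42.2% and 44.4% of control. FANCD2 had 4.95, 5.75 and 5.86 FPKM in control and 2.66, 1.74 and 2.59 FPKM in OFD1-depleted cells (log2 fold change -1.23, SE 0.195, limma adjusted p = 0.00149). FANCI had 17.7, 21.1 and 18.5 FPKM and then 9.22, 6.20 and 10.0 FPKM (log2 fold change -1.19, SE 0.180, limma adjusted p = 0.00109). FANCI was thus more abundant per length than FANCD2 in every library, and the proteins of both work as a dimer.

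Of the end resection genes, 1 of 5 fell (20%, beside 11.9% of all genes). EXO1, the nuclease of long-range resection, had 4.93, 5.24 and 4.81 FPKM in control and 2.09, 2.03 and 2.03 FPKM in OFD1-depleted cells (log2 fold change -1.24, SE 0.159, limma adjusted p = 0.000364). Its OFD1-depleted values had an SD of only 0.0358 FPKM. The MRN complex, which binds the broken end, did not pass. MRE11, its nuclease, had 3.03, 2.46 and 2.51 FPKM and then 1.86, 1.54 and 1.95 FPKM (log2 fold change -0.56, limma adjusted p = 0.0825). RAD50, its ATPase, had 8.59, 9.24 and 8.17 FPKM and then 9.27, 6.26 and 9.33 FPKM (log2 fold change -0.09, interval -0.46 to 0.29). NBN, its signalling subunit, gave -0.34 (limma adjusted p = 0.215), with groups apart. RBBP8, the cofactor known as CtIP, overlapped between groups at -0.18 (limma adjusted p = 0.448). In RAD50 the low value of OFD1-depleted replicate 2 set the sign, as its log2 fold change was 0.10 without that library. Without it NBN was at -0.16, RBBP8 at -0.07 and PALB2, of the mediators, at -0.11.

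Among the genes of dissolution, resolution and end joining, 5 of 6 fell. BLM is the helicase that, with RMI1 and RMI2, takes joined chromatids apart without crossing over. BLM had 2.50, 2.79 and 1.88 FPKM in control and 0.892, 0.538 and 1.04 FPKM in OFD1-depleted cells (log2 fold change -1.46, limma adjusted p = 0.00587). RMI1 had 5.28, 4.79 and 3.76 FPKM and then 2.35, 1.77 and 1.78 FPKM (log2 fold change -1.18, limma adjusted p = 0.00202). RMI2 had 12.4, 15.7 and 13.05 FPKM and then 6.55, 6.07 and 4.90 FPKM (log2 fold change -1.22, limma adjusted p = 0.000367). The 3 subunits kept their groups apart and stood at 34.4% to 42.7% of control. POLQ, the polymerase of microhomology-mediated end joining, had 1.63, 1.56 and 1.65 FPKM and then 0.644, 0.372 and 0.556 FPKM (log2 fold change -1.48, limma adjusted p = 0.00694).

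EME1 and MUS81 form a nuclease that cuts joint molecules, and their values differed. EME1 had 5.19, 6.40 and 4.25 FPKM in control and 2.78, 1.55 and 2.28 FPKM in OFD1-depleted cells (log2 fold change -1.24, limma adjusted p = 0.00407). MUS81 had 19.6, 20.6 and 19.3 FPKM and then 20.5, 22.1 and 15.6 FPKM, so that its OFD1-depleted values lay on both sides of control (log2 fold change -0.05, interval -0.37 to 0.28). EME1 lies opposite LRRC59 over 16.4% of its exon bases, listed at 69.5 FPKM in control. MUS81 lies opposite CFL1 over 13.9%, listed at 927 FPKM, so its level is uncertain where reads of both strands were counted together.

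Of the checkpoint genes, 3 of 5 fell, and none by as much as 1 on the log2 scale. CHEK1, the effector kinase of the replication checkpoint, had 12.8, 13.1 and 10.2 FPKM in control and 7.14, 6.12 and 5.59 FPKM in OFD1-depleted cells (log2 fold change -0.93, SE 0.155, limma adjusted p = 0.00202). TOPBP1, which activates ATR, had 8.90, 9.74 and 7.89 FPKM and then 5.78, 4.22 and 5.23 FPKM (log2 fold change -0.80, limma adjusted p = 0.00622). ATR itself, the kinase of stalled forks, had 5.43, 4.77 and 4.61 FPKM and then 6.09, 4.11 and 5.60 FPKM. Its groups overlapped, with a log2 fold change of 0.08 and an interval of -0.31 to 0.46. ATM, the kinase of broken ends, had 4.64, 4.82 and 3.83 FPKM and then 3.11, 1.62 and 3.13 FPKM. It passed narrowly (log2 fold change -0.79, SE 0.246, limma adjusted p = 0.0493) and missed the threshold in 8 of 17 alternatives, among them leaving out any of the 3 control replicates, with adjusted p up to 0.222. Without OFD1-depleted replicate 2, its lowest library, the log2 fold change of ATM was -0.49 (limma adjusted p = 0.0481). CHEK2, its effector kinase, had 5.49, 5.51 and 5.36 FPKM and then 3.35, 4.10 and 4.68 FPKM, apart but not past the threshold (log2 fold change -0.44, limma adjusted p = 0.0914).

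**Figure D2:**
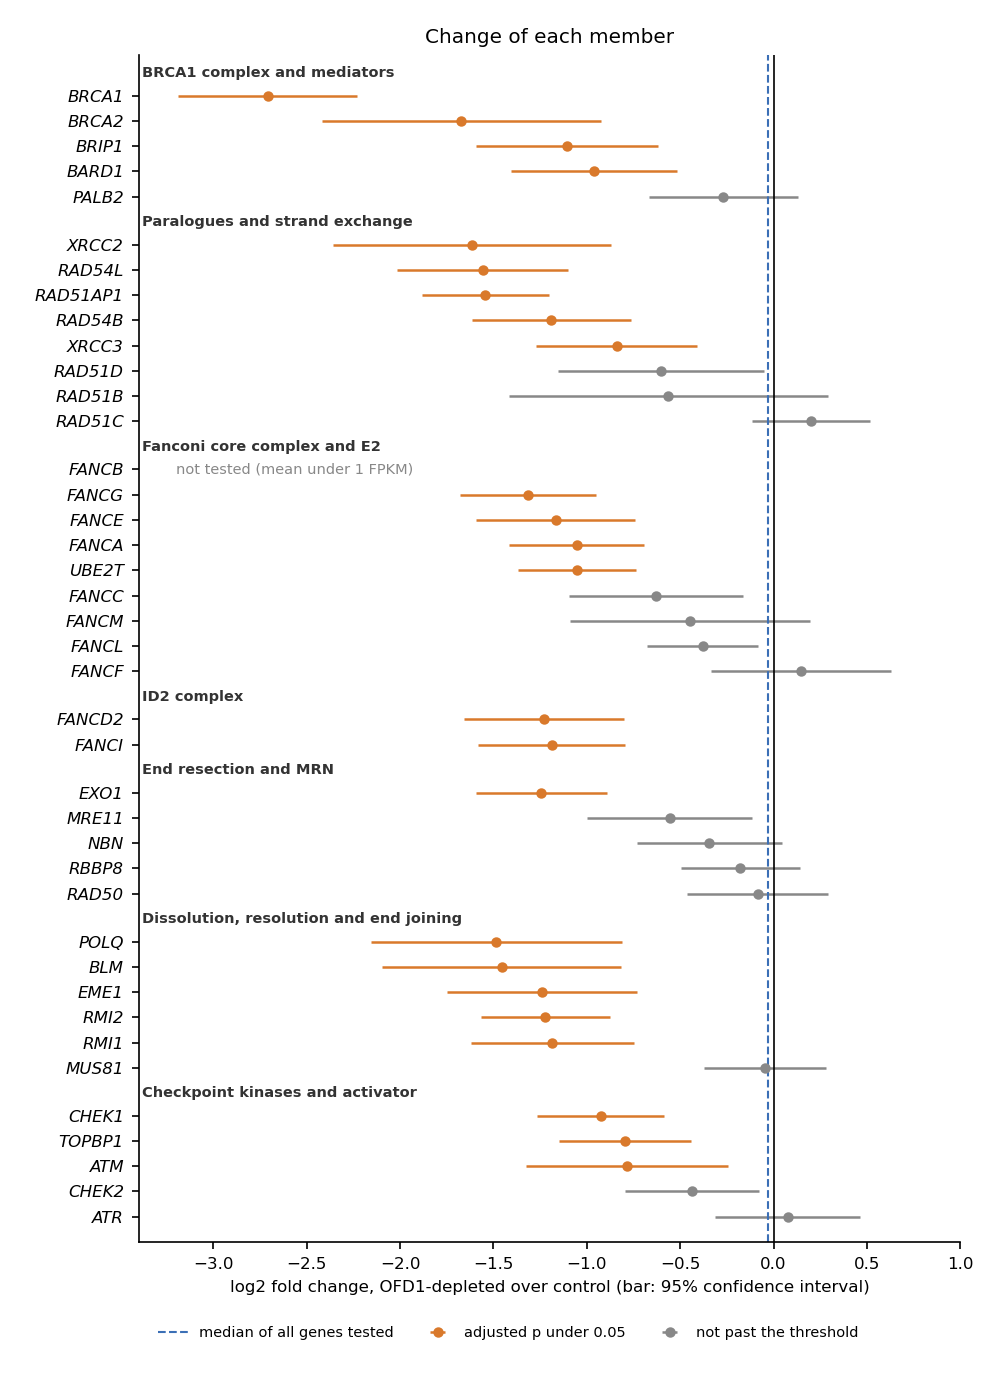
Log2 fold change of each member, OFD1-depleted over control, with its 95% confidence interval from limma, by role. Orange members passed an adjusted p of 0.05, from BRCA1 at -2.71 to ATM at -0.79, grey members did not, and the dashed line is the median of all genes tested (-0.03).

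To compare partner genes within a sample, 18 pairs of members were described by the log2 ratio of FPKM + 0.1, which depends little on how the sample was scaled except in the lowest genes. In 11 pairs the ratio was lower in all OFD1-depleted samples than in any control, in 1 it was higher, and in 6 the groups overlapped. The direction depends on which gene was put first, and the members' own changes enter these ratios. Over all pairs of tested genes, the groups did not overlap, in either direction, in 39.8%. With 3 against 3 samples the exact permutation p could not go below 0.1, and 0.15 was the smallest after Benjamini-Hochberg adjustment over the 18 pairs. No pair could therefore pass.

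BRCA1 lost most against its partners. The log2 ratio of BRCA1 to BARD1 was 0.20, 0.19 and 0.04 in control and -1.54, -1.53 and -1.74 in OFD1-depleted cells, a difference of -1.75. The ratio of BRCA1 to BRIP1 moved by -1.60 and that of BRCA2 to PALB2 by -1.40. In all 3 the gap between the groups was wider than the range within either group. EME1 against MUS81 gave -1.20, EXO1 against RBBP8 gave -1.07 and CHEK1 against ATR gave -1.001. In control CHEK1 was 2.33, 2.71 and 2.19 times as abundant per length as ATR, and in OFD1-depleted cells 1.17, 1.48 and 0.997 times. TOPBP1 against ATR gave -0.87, UBE2T against FANCL -0.67, MRE11 against RAD50 -0.47, RAD54L against RAD54B -0.37 and NBN against RAD50 -0.26, all with groups apart.

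In the other 6 pairs the groups of ratios overlapped. FANCD2 to FANCI was -1.77 ± 0.115 in control and -1.81 ± 0.0835 in OFD1-depleted cells (log2 ratio, SD, n = 3; exact permutation p = 0.7). RMI2 to RMI1 was 1.56 ± 0.299 and 1.52 ± 0.171 (exact permutation p = 0.9). BLM to RMI1 (difference -0.27), FANCA to FANCG (0.26), CHEK2 to ATM (0.35) and RAD51B to RAD51C (-0.76) also had overlapping groups. RAD51D to XRCC2 was the pair that rose, from 0.09 ± 0.122 to 1.10 ± 0.400. The sizes of ratios with low genes depended on the pseudocount: with 1 in place of 0.1 FPKM, BRCA1 to BARD1 moved by -1.11.

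**Figure D3:**
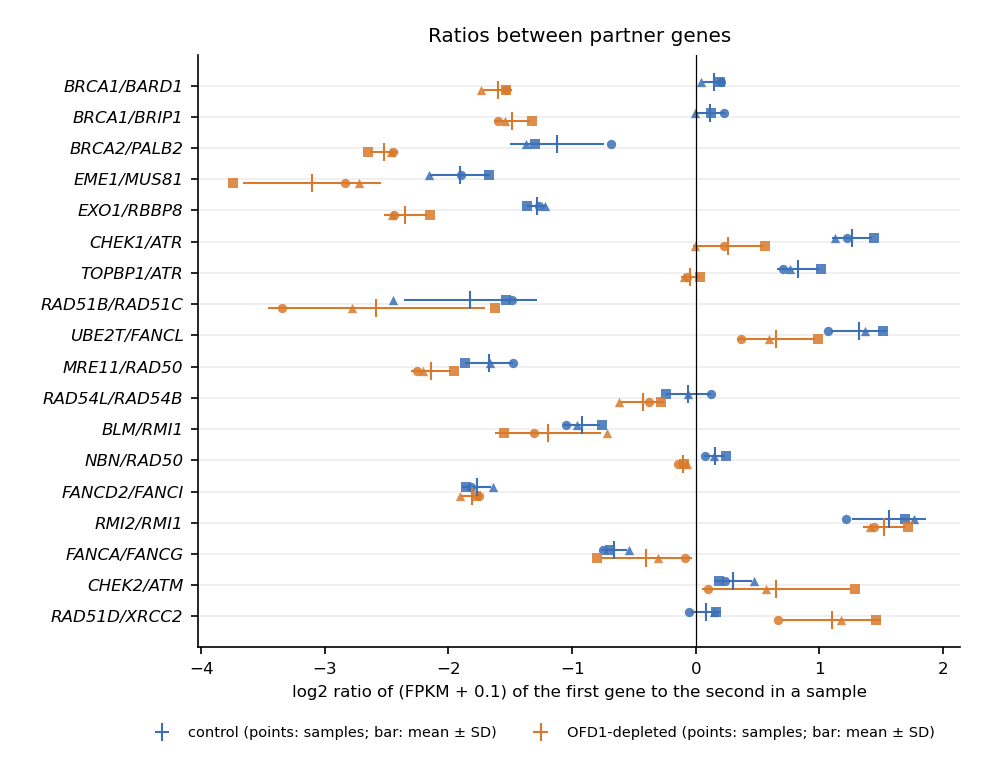
Log2 ratio of FPKM + 0.1 between partner genes in each sample (circle, square and triangle for replicates 1, 2 and 3), with mean and SD per group (bars), control in blue and OFD1-depleted in orange. BRCA1 against BARD1 and BRIP1 shows the widest gaps (-1.75 and -1.60), whereas FANCD2 against FANCI and RMI2 against RMI1 lie on top of each other.

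Genes that start close to a member on the opposite strand share its promoter region, and 10 members had such a neighbour within 1000 bases that was tested. This comparison was chosen after the members' values were seen. Of the 10 neighbours, 1 passed as lower, none as higher and 9 did not pass, a share near the 11.9% of all genes. NBR2, a noncoding RNA that starts 187 bases from BRCA1, averaged 1.63 ± 0.0870 FPKM without doxycycline and 1.40 ± 0.101 FPKM with it (SD, n = 3; log2 fold change -0.21, limma adjusted p = 0.579), beside -2.71 for BRCA1. MRPL27, a mitochondrial ribosomal protein gene 45 bases from EME1, gave 0.07 (limma adjusted p = 0.842), and HNRNPK, an RNA-binding protein gene 590 bases from RMI1, gave -0.15 (limma adjusted p = 0.466). C12orf4 beside RAD51AP1 gave -0.10 and ANKRD49 beside MRE11 gave 0.26, neither past the threshold.

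The ratio of the member to its neighbour was lower in every OFD1-depleted sample than in any control in 8 of the 10 (exact permutation p = 0.1 each), by -2.50 for BRCA1, -1.44 for RAD51AP1, -1.31 for EME1 and -1.04 for RMI1. Over all 1044 such pairs of tested genes the groups did not overlap, in either direction, in 35.5%, and the members' own falls enter these ratios. In the pairs of FANCB with MOSPD2 and CHEK2 with HSCB the groups overlapped. MOSPD2, the neighbour that passed, changed by -0.87 on that scale (limma adjusted p = 0.0193). NPAT, which activates histone transcription and starts 429 bases from ATM, gave -0.43 (limma adjusted p = 0.167), and the ratio of ATM to NPAT moved by -0.36.

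Other genes of the same pathways, listed by their known roles, had medians nearer to 0 than the members. Of 32 tested partners in recombination, 10 fell (31.25%) and 1 rose (3.125%), with a median of -0.26. Over all genes tested the shares were 11.9% and 5.07%. TONSL and MMS22L, partners at stalled forks, fell by 1.49 and 1.33, and FIGNL1 fell by 1.19 (log2 units, limma adjusted p 0.000329 to 0.00305). DNA2, a nuclease of long-range resection, had 5.72, 5.82 and 4.82 FPKM in control and 3.16, 1.76 and 2.77 FPKM in OFD1-depleted cells, with groups apart (log2 fold change -1.10, limma adjusted p = 0.00555). It missed the threshold with no filter. BABAM2, a subunit of a BRCA1 complex, was the gene that rose, from 18.0 ± 1.94 to 24.9 ± 0.720 FPKM (SD, n = 3; log2 fold change 0.47, limma adjusted p = 0.0283). It missed the threshold with TPM scaling, with no filter, without the trend, without mitochondrial genes and when OFD1-depleted replicate 1 or 3 or control replicate 1 or 3 was left out.

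Of 18 partners in the Fanconi pathway, 5 fell (27.8%, beside 11.9% of all genes) and none rose, with a median of -0.30. USP1, which removes ubiquitin from FANCD2, had 18.8, 20.8 and 16.7 FPKM in control and 7.35, 5.49 and 7.33 FPKM in OFD1-depleted cells (log2 fold change -1.48, limma adjusted p = 0.00011). UHRF1 gave -1.46, DCLRE1B, a nuclease, -1.12, and RFWD3, an E3 ligase, -1.10 (limma adjusted p 3.34e-05 to 0.0016). The enzyme that removes the mark thus fell along with UBE2T, which adds it.

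Of 20 partners of the checkpoint kinases, 10 fell (50%, beside 11.9% of all genes) and none rose, with a median of -0.57. H2AX, the histone that ATM and ATR phosphorylate around a break, had 140, 167 and 148 FPKM in control and 22.8, 29.95 and 23.1 FPKM in OFD1-depleted cells (log2 fold change -2.59, limma adjusted p = 5.03e-06). CLSPN, which brings CHEK1 to ATR, fell by 1.74, PKMYT1, which inhibits CDK1, by 1.62, and CDC25B, which activates it, by 0.95 (limma adjusted p 4.35e-05 to 0.00063). All OFD1-depleted values of these 4 genes lay below all control values.

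Of 13 tested genes of nonhomologous end joining, 1 fell (7.69%, beside 11.9% of all genes) and none rose, with a median of -0.18. That gene was SHLD2, a shieldin subunit that limits resection, at 14.5, 19.3 and 13.99 FPKM in control and 8.33, 4.97 and 8.02 FPKM in OFD1-depleted cells (log2 fold change -1.17, limma adjusted p = 0.00269). With no filter it missed the threshold, and no gene of the list passed.

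**Figure D4:**
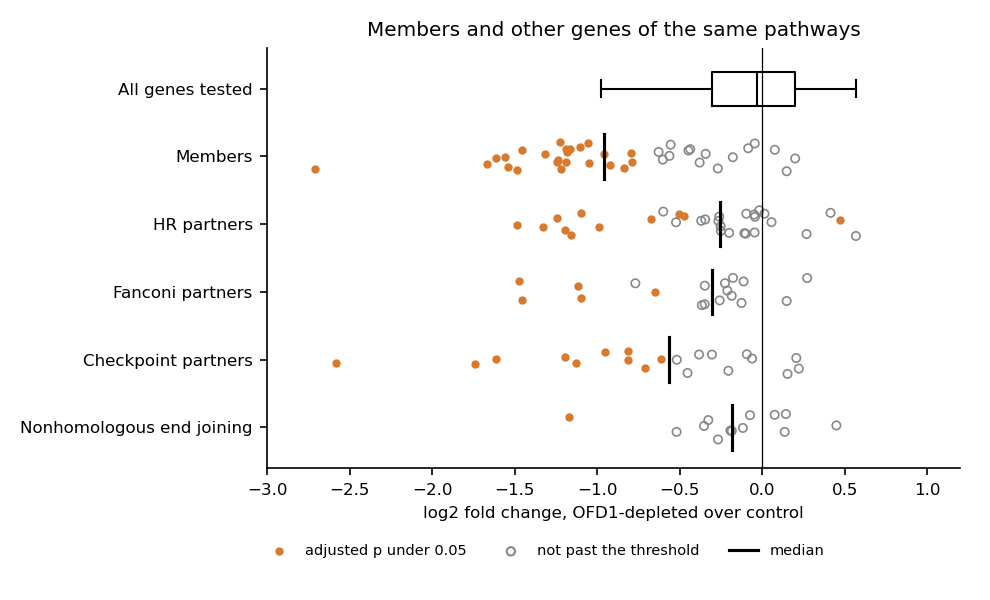
Log2 fold change of the tested members and of 4 lists of other repair genes, with the median of each as a black bar, and of all genes tested as a box (quartiles, with whiskers at the 5th and 95th percentiles). The medians are -0.96 for the members, -0.26, -0.30 and -0.57 for the recombination, Fanconi and checkpoint partners, and -0.18 for nonhomologous end joining.

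Genes of the cell cycle moved with the groups. Of 39 tested S-phase genes of the Seurat list, without the members RAD51AP1, EXO1 and BLM, 35 fell (89.7%) and none rose, with a median of -1.16. Of 54 G2/M genes 50 fell (92.6%) and none rose, with a median of -1.23. Over all genes tested, 11.9% passed as lower and 5.07% as higher. The members' median of -0.96 lay between the medians of these cell cycle lists and those of the partner lists. Only members were taken out of the cell cycle lists, so they and the partner lists can share genes. The part of the share of dividing cells in the members' change was not tested.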

How the data were processed

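RNA-seq was analysed in 6 samples of one cell line, 3 control and 3 OFD1-depleted. Per the labels and methods, the authors aligned paired-end reads of directional libraries with HISAT2 (version 2.0.5 in the submitters' processing notes) to GRCh38 and deposited FPKM per gene from StringTie, whose version and strand setting are not given in the sources used here. FPKM is already scaled by length and depth, and the table holds no read counts, so count tests were not used. Between 22.1% and 24.8% of low values of single-exon genes lay within 0.05 of whole multiples of a step per sample, which gives an approximate depth of 37800000 to 44500000 fragments that entered no test. All 67130 genes were read, and the 6464 on alternative contigs were at 0.

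Genes averaging 1 FPKM or more were compared with limma 3.58.1 (trend, two-sided, Benjamini-Hochberg over 12025 genes) in R 4.3.3 on log2(FPKM + 0.1), as tested on simulated data. Ratios were compared by exact permutation in Python 3.11.15 with scipy 1.17.1. Exon overlaps and starts came from GENCODE and promoters from RefSeq GRCh38.p14, where FANCI, RMI2, NBN and RAD54B were not matched. S and G2/M genes came from Seurat 5.3.0. One recombination partner, FIRRM, had no row under that symbol, and another gene of that list is not reported here. All members were named, with the 4 genes of smallest p per pathway list and direction. The members, lists and tests were chosen with earlier results of these data known. The settings changed were the pseudocount (1 or 0.01), the filter (none, or 5 FPKM), the scaling (median-of-ratios, TPM, quantile and without mitochondrial genes), limma without trend and with array weights, a replicate block, protein-coding genes alone and each sample left out.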

Additional observations from a re-analysis of the deposited data

How the results depend on the processing

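Of the 90 results, under 18 alternatives, 1305 of 1407 values were classed as the same. For single values this meant a kept direction and side of the threshold, or a move of less than the spread. For counts, which have no spread, the class was wide. It held 16 members lower with no filter against 24, and 964 genes lower with a filter at 5 FPKM against 1429. All 24 members that fell also passed with pseudocounts of 1 and 0.01, with TPM scaling, array weights, protein-coding genes alone and without OFD1-depleted replicate 2. The median over all genes shifted by -0.145 (log2) with TPM scaling. Where a change is stated, the cause was not tested.

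With no filter, 16 of the 40 members fell, all of them among the 24. In that fit 823 genes (2.89%) passed as lower and 260 as higher. There 4 recombination partners fell and none rose, and 0 genes of nonhomologous end joining fell. With a filter at 5 FPKM, which leaves 14 members in the fit, 7 members fell, as did 2 recombination and 6 checkpoint partners. These 7 were all of the 24 members that stayed in that fit, where 12.2% of all genes passed as lower. With array weights, 2263 genes (18.8%) passed as lower and 1693 as higher, and 29 members fell. In that fit 2 recombination partners rose, and 8 Fanconi partners fell and 1 rose. There 1 checkpoint partner rose, and 3 genes of end joining fell and 1 rose. With TPM scaling 268 genes passed as higher, 0 recombination partners rose and 3 genes of end joining fell. With quantile normalization 1096 genes passed as higher and 1 gene of end joining rose, as it did with median-of-ratios scaling. No recombination partner rose (0) with scaling without mitochondrial genes or with limma without trend.

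With each sample left out in turn, 22 to 24 members fell. The count over all genes ran from 867 to 1741 lower (7.21% to 14.5%) and from 244 to 1077 higher, the highest both times without OFD1-depleted replicate 2. Without control replicate 1 the counts were 904 and 251, and without control replicate 3 they were 867 and 244. Without OFD1-depleted replicate 1 or 3, 321 and 398 genes passed as higher. Recombination partners ran from 6 (without control replicate 1) to 11 lower and from 0 to 1 higher, Fanconi partners from 4 to 7 lower and from 0 to 1 higher, checkpoint partners from 7 to 12 lower, and end joining from 1 to 2 lower and from 0 to 1 higher. Leaving out samples for the count of members with groups apart was added after seeing the data, and gave 32 to 36, of which 32 to 33 were lower. The rest were higher: RAD51C, RAD50 and ATR without OFD1-depleted replicate 2, RAD51C and FANCF without control replicate 2, and FANCF without OFD1-depleted replicate 3. With a sample left out, 23.9% to 29.2% of all genes tested were apart as lower and 15.6% to 24.3% as higher.

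With the replicate number as a block, 24 members fell, the same 24 genes, 2 recombination partners rose and 2 genes of end joining fell. Of all genes tested, 12.8% passed as lower in that fit. Samples with the same number deviated from their group means with correlations of 0.058, 0.048 and 0.011, and the labels tie the number to no shared culture or day, so the number was not treated as a pairing.

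Signs reversed only in values that did not pass. RAD50 was at 0.0312 with quantile normalization, 0.0760 with array weights and 0.102 without OFD1-depleted replicate 2, and left-out samples gave -0.182 to 0.102. MUS81 was at 0.00627 with median-of-ratios scaling and 0.0125 with quantile normalization, and left-out samples gave -0.146 to 0.103. ATR was at -0.0680 with TPM scaling, and left-out samples gave -0.0367 to 0.242. The ratio FANCD2/FANCI moved by 0.127 with a pseudocount of 1 and by -0.0825 to 0.0256 with samples left out, the ratio BLM/RMI1 by 0.0177 with a pseudocount of 1, and the ratio RMI2/RMI1 by -0.209 to 0.0664 with samples left out. The table's FPKM hold no counting error, and the difference of members under 1 FPKM depends on the pseudocount.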
